A study of Mus musculus with 6 samples.

Results

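The minor salivary gland secretory genes are 10 genes whose products are secreted or moved by salivary gland cells: Bpifb1, Muc5b, Aqp5, Lpo, Ltf, Pip, Dmbt1, Amy1, Pigr and Wfdc2. They are 10 of 18193 genes with a probe set annotated to them alone. Where a gene had several such probe sets, the brightest by its 6-array mean is given, and the others serve as a check. Bpifb1 was selected on its log2 signals in these arrays, namely their wide spread within both groups, so its levels are a description with no test. No measured value is given as the reason for choosing the other 9, but they were chosen with earlier results of these data known. The tongues came from adult C57BL/6J mice, an inbred strain: 3 were from mice that drank 4-nitroquinoline 1-oxide (4NQO), a carcinogen that damages DNA, for 8 weeks at 100 μg/ml, and 3 were from non-treated mice, the negative control. Each tongue came from 1 mouse and was measured on 1 Affymetrix array, and the values are log2 signals, on which 1 unit is a doubling. The labels and methods do not say which part of each tongue went into the RNA.

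Minor salivary glands lie under the epithelium and between the muscle bundles of the tongue, mainly toward its back. Serous acinar cells release enzymes and antimicrobial proteins, mucous acinar cells release mucins, and both rely on water channels and ion transport to make saliva. Squamous epithelium and skeletal muscle make up most of a tongue, so a piece of tongue can hold much or little gland depending on where it was cut. In such bulk tissue, fewer gland cells and less gland RNA per cell cannot be told apart.

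Bpifb1 was bright in 1 of the 3 4NQO-treated tongues and in 2 of the 3 control tongues. It encodes a secreted protein of the BPI fold family, named for its likeness to the bactericidal/permeability-increasing protein. Its log2 signal was 4.14, 5.004 and 13.72 in the 4NQO-treated tongues 1, 2 and 3, against 4.33, 13.12 and 10.83 in the control tongues 1, 2 and 3. The array medians lay between 4.449 and 4.602, so the signal of 4NQO 1, 4NQO 2 and control 1 is not shown to be above background, and that of 4NQO 3 lay near the array maximum of 14.15. The main probe set carries the suffix of probes that may match other transcripts. The other Bpifb1 probe set, without this suffix, gave the same order among the bright tongues, with 3.44, 3.61 and 13.26 in 4NQO-treated tongue and 3.20, 12.79 and 10.49 in control tongue.

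**Figure D1:**
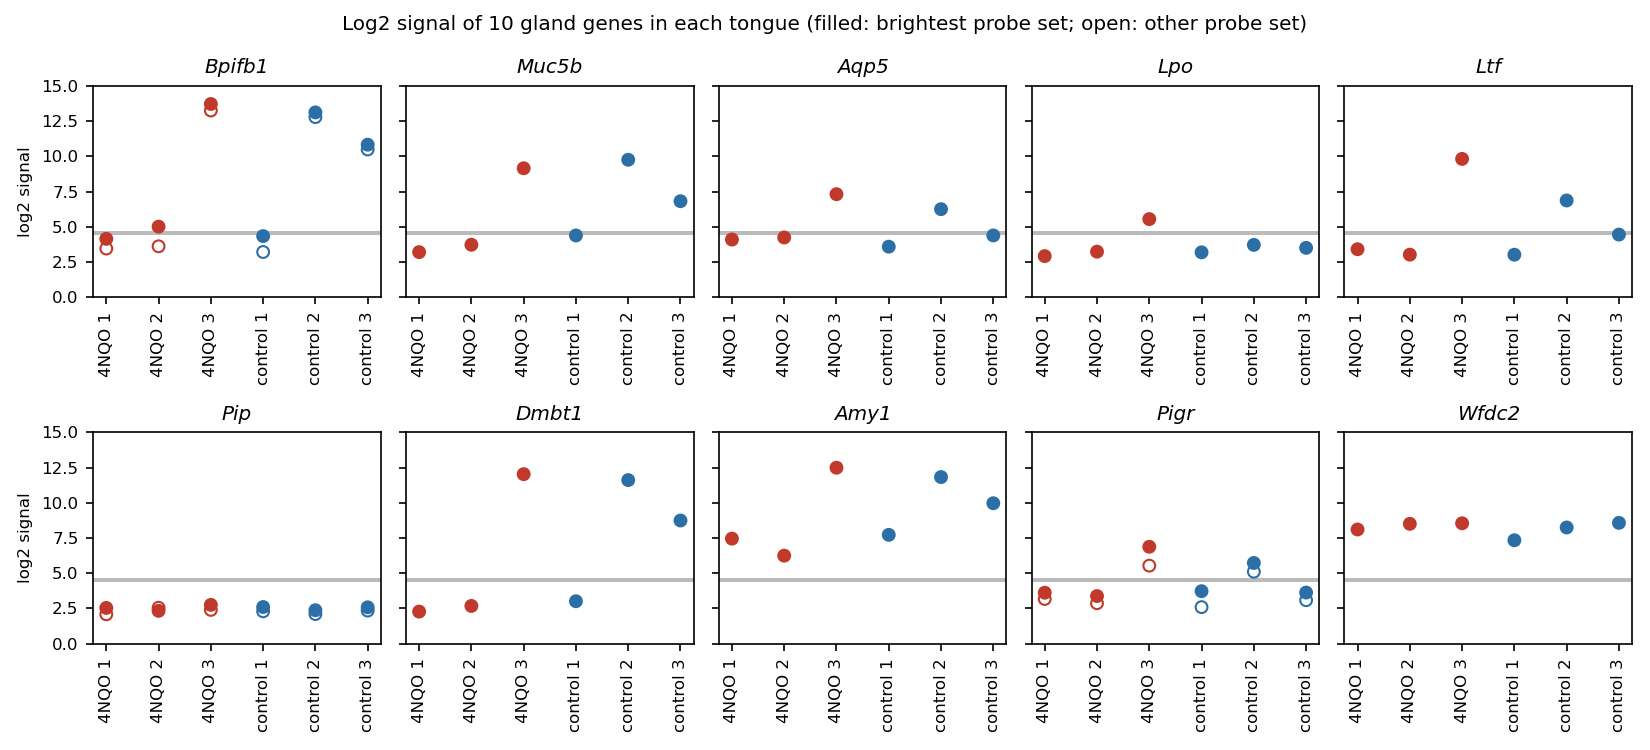
Log2 signal of each of the 10 gland genes, with 1 filled point for each of 3 4NQO-treated tongues (red) and 3 control tongues (blue), open points for the other probe set where there is one, and a grey band for the range of array medians. For Bpifb1, 4NQO 3 lies at 13.72 and control 2 at 13.12, while 4NQO 1, 4NQO 2 and control 1 lie between 4.14 and 5.004. Pip stays below the grey band in all 6 tongues and Wfdc2 above it.

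The upstream sequences of Bpifb1, of Bpifa2 and Lipf, which are shown because Bpifa2 was the gene outside the list most like Bpifb1 and Lipf the gene of widest range, and of Pip and Wfdc2, which did not follow it, are given here from RefSeq with build GRCm38.p6. Each is the 150 bases before an annotated start, 5′ to 3′ on the gene's own strand, and capitals mark TATAA, the core letters of a TATA box.
Bpifb1, the downstream of both annotated starts (chr2:154200230-154200379, plus strand): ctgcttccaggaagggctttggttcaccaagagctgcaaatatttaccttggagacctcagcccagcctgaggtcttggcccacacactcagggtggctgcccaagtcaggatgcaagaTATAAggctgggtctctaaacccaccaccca
Bpifa2 (chr2:154008126-154008275, plus strand): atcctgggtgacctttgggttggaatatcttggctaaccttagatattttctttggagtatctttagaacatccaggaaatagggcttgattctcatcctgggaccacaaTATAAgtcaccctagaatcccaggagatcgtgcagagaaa
Lipf (chr19:33961098-33961247, plus strand): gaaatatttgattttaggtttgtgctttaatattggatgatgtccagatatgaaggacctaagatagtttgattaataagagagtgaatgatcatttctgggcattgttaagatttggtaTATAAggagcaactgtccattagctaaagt
Pip (chr6:41847399-41847548, plus strand): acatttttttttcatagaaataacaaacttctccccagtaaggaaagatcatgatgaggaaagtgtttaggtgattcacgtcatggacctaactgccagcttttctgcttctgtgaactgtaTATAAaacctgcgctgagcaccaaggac
Wfdc2, the first of both annotated starts (chr2:164562565-164562714, plus strand): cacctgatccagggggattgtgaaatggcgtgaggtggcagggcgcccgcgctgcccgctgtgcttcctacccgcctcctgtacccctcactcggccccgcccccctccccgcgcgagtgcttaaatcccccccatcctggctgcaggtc

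Dmbt1 and Muc5b, which also encode secreted products, were bright in the same tongues as Bpifb1. Dmbt1 encodes a scavenger receptor protein of saliva that binds bacteria, and its log2 signal was 2.27, 2.67 and 12.04 in the 4NQO-treated tongues 1 to 3, against 3.01, 11.62 and 8.75 in the control tongues 1 to 3. Its range of 9.77 over the 6 tongues was the fourth widest of all 18193 genes, and that of Bpifb1, 9.58, was the fifth. Muc5b encodes a gel-forming mucin of mucous cells, with 3.19, 3.72 and 9.15 in 4NQO-treated tongue and 4.38, 9.76 and 6.81 in control tongue. Unlike Bpifb1 and Dmbt1, Muc5b was highest in control 2 and not in 4NQO 3.

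Among the enzymes and antimicrobial proteins, Amy1 and Ltf varied by more than 6 units, Lpo by 2.63 and Wfdc2 and Pip by much less. Amy1 encodes salivary amylase, which digests starch, and was at 7.46, 6.25 and 12.50 in 4NQO-treated tongue, against 7.73, 11.83 and 9.97 in control tongue. It was above the array medians in every tongue, also in those where Bpifb1 was near them. Amylase genes are near-identical copies, so its probes may also read others of the family. Ltf encodes lactoferrin, an iron-binding antibacterial protein, and was at 3.40, 3.01 and 9.82 in 4NQO-treated tongue, against 3.01, 6.86 and 4.44 in control tongue. Lactoferrin is also stored in neutrophil granules, and the 11 measured genes of the neutrophil list summed to 50.23, 55.68 and 60.89 in 4NQO-treated tongue, against 49.14, 47.41 and 54.18 in control tongue. The sum was highest in 4NQO 3, as Ltf was, and lowest in control 2, where Ltf was second. The widest ranges in this list were those of S100a8 (5.44), which keratinocytes also make, and S100a9 (5.21). Lcn2, another granule protein that epithelia also make, was at 5.10, 5.44 and 7.08 in 4NQO-treated tongue and 4.83, 4.77 and 7.05 in control tongue, while the granule genes Camp (3.78 to 4.15), Mmp8 (3.26 to 3.75) and Elane (3.18 to 3.70) stayed dim in all 6 tongues. The part of neutrophils in the Ltf signal was not tested. Lpo encodes lactoperoxidase, a peroxidase of saliva, and passed the array medians only in 4NQO 3, with 2.91, 3.23 and 5.54 in 4NQO-treated tongue and 3.18, 3.71 and 3.50 in control tongue.

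Wfdc2 and Pip did not share this pattern. Wfdc2, a small secreted protein with whey acidic protein domains that many epithelia express, was at 8.11, 8.51 and 8.55 in 4NQO-treated tongue and 7.34, 8.25 and 8.58 in control tongue. Its lowest value was in control 1 and its highest in control 3, with 1.23 between them. Pip, prolactin-induced protein, lay between 2.32 and 2.75 in all 6 tongues by its main probe set and between 2.08 and 2.54 by the other. It stayed below the lower quartile of each array, 2.87 to 2.94, also in the tongues where Bpifb1 was bright, and Pip was not shown to be above background in any tongue.

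The membrane proteins of the list were highest in 4NQO 3 and control 2. Aqp5, the water channel of the acinar cell surface, was at 4.09, 4.23 and 7.31 in 4NQO-treated tongue and 3.58, 6.25 and 4.38 in control tongue. Pigr, the receptor that carries polymeric IgA through gland cells into saliva, was at 3.61, 3.38 and 6.88 in 4NQO-treated tongue and 3.72, 5.73 and 3.62 in control tongue, and its second, dimmer probe set gave the same 2 tongues as highest. Control 3, where Bpifb1 was at 10.83, had levels of both genes close to or below the array medians.

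None of the 9 genes other than Bpifb1 changed with 4NQO at an adjusted p under 0.05 in limma, where 0.132% of all genes did (0.126% higher and 0.0055% lower), and none of the 10 had groups that did not overlap, against 16.8% of all genes. None of the 9 passed at an unadjusted p under 0.05 either, against 10.4% of all genes. Dmbt1 averaged 5.66 ± 5.53 in 4NQO-treated tongue and 7.79 ± 4.38 in control tongue (SD, n = 3 each), a log2 fold change of -2.13 with a standard error of 2.90. Ltf averaged 5.41 ± 3.82 in 4NQO-treated tongue and 4.77 ± 1.95 in control tongue (SD, n = 3 each), with a log2 fold change of 0.64 and a standard error of 1.77. These spreads are larger than the differences between groups. Wfdc2 had the smallest p of the list, with 8.39 ± 0.24 in 4NQO-treated tongue and 8.06 ± 0.64 in control tongue (SD, n = 3 each), a difference of 0.33 and limma's adjusted p at 0.729. Pip had the largest of the tested 9, at 0.968. The median log2 fold change was 0.14 over the 10 genes and -0.01 over all genes, and 6 of the 10 were positive, against 47.7% of all genes. Without 4NQO 3 the median over the 10 genes was -1.22, with Dmbt1 at -5.32, Muc5b at -3.53 and Amy1 at -2.99, each at an unadjusted p under 0.05 in that fit and at an adjusted p of 0.490, 0.465 and 0.439 from limma. That fit removes the only 4NQO-treated tongue bright for these genes, so lower values follow. With each other array left out, no member passed at an unadjusted p under 0.05 in limma. The median then lay between -0.17 (without control 1) and 0.25 (without 4NQO 1). A p that misses the threshold with 3 tongues per group does not show equal levels.

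The spread between tongues of 1 group was wide for most of the list. A range of at least 2 log2 units over the 6 tongues was reached by 8 of the 10 genes, 7 of the 9 without Bpifb1, and by 2.15% of all genes. The median range was 4.99 over the 10 genes, 3.73 over the 9 without Bpifb1 and 0.56 over all genes. The pooled SD within groups was at least 1 for the same 8 genes and for 0.885% of all genes, with a median of 2.19 over the 10 genes and 0.20 over all genes. Bpifb1, picked for this very spread, is among the 8 and in the medians over the 10. In those 8 genes 4NQO 3 and control 2 were the 2 highest tongues, an order seen in 5.68% of all genes, and together with a range of at least 2 in 0.236%. Control 3 came next in 7 of the 10, against 1.99% of all genes, and the exception among the 8 was Pigr, where control 1 did. These counts were chosen after the values were seen and describe these 6 tongues.

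As a measure of how much gland each tongue held, the deviation of each gene from its mean over the 6 arrays was averaged over the 10 genes. This gland index was -1.80, -1.74 and 2.86 in the 4NQO-treated tongues 1 to 3, against -1.68, 1.98 and 0.38 in the control tongues 1 to 3. By this index 4NQO 3 held the strongest gland signal, control 2 came next and control 3 lay between them and the other tongues. Without Bpifb1 the index was -1.51, -1.54 and 2.60 in 4NQO-treated tongue and -1.40, 1.69 and 0.16 in control tongue, with the bright tongues in the same order. The 3′ minus 5′ difference of the Gapdh control probe sets, a sign of RNA integrity, was 0.47, 1.07 and 0.33 in 4NQO-treated tongue and 0.086, 0.20 and 1.67 in control tongue. It was highest in control 3, with an intermediate index, and in 4NQO 2, with a low one. The same difference for actin was 1.12, 0.95 and 0.55 in 4NQO-treated tongue and 0.75, 0.83 and 1.01 in control tongue, highest in 4NQO 1, with a low index, and lowest in 4NQO 3, with the highest. The part of RNA integrity in the index was not tested.

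**Figure D2:**
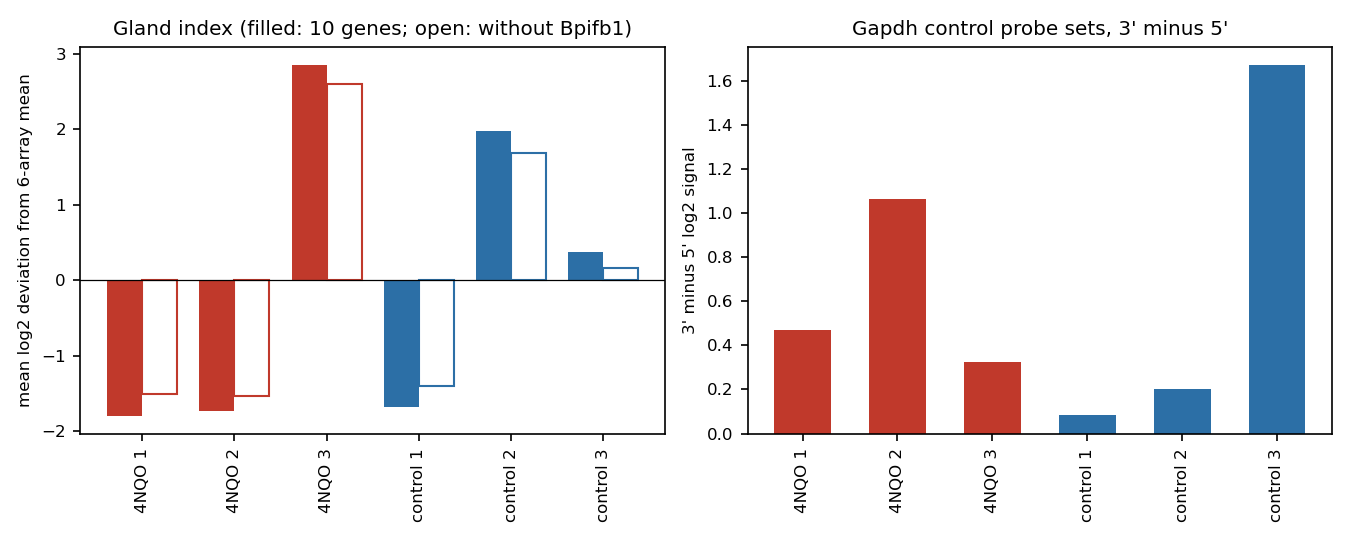
Left, gland index of each tongue in log2 units, the mean deviation of 10 gland genes (filled) or of 9 without Bpifb1 (open) from their means over 6 arrays. Right, 3′ minus 5′ log2 signal of the Gapdh control probe sets. 4NQO-treated tongues are red and control tongues blue, and the index reaches 2.86 in 4NQO 3 and 1.98 in control 2, where the Gapdh difference is 0.33 and 0.20.

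Other genes of gland cells were followed through lists written for this tissue. Of 18 measured further genes of acinar cells, 4 had a range of at least 2 with 4NQO 3 and control 2 highest. Bpifa2, parotid secretory protein, was at 2.10, 2.80 and 12.31 in 4NQO-treated tongue and 2.31, 11.41 and 8.37 in control tongue. Car6, the secreted carbonic anhydrase of saliva, was at 3.66, 3.33 and 8.12 in 4NQO-treated tongue and 3.05, 5.31 and 3.55 in control tongue. Bhlha15, the MIST1 transcription factor of serous secretory cells, was at 3.90, 3.26 and 6.53 in 4NQO-treated tongue and 3.50, 5.07 and 3.74 in control tongue. Kcnn4, a calcium-activated potassium channel, was the other one. Slpi, a secreted protease inhibitor, also had a range of at least 2 and did not have this order, with 12.97, 13.80 and 13.75 in 4NQO-treated tongue and 13.26, 11.24 and 13.74 in control tongue, so that it was lowest in control 2. Other bright genes of this list had a narrow range and another order. Lyz1 was at 10.97, 11.34 and 11.74 in 4NQO-treated tongue and 11.40, 11.04 and 11.84 in control tongue. Slc12a2 was at 9.87, 9.94 and 9.60 in 4NQO-treated tongue and 9.53, 9.86 and 9.92 in control tongue. Ano1 was at 7.67, 7.32 and 7.24 in 4NQO-treated tongue and 7.15, 7.49 and 7.52 in control tongue. Bpifa1, Prol1, Mucl1 and Mucl2, which also encode secreted products, lay between 1.60 and 2.72 in every tongue. None of the 18 genes passed limma's test of 4NQO against control.

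Of 16 duct, myoepithelial and simple epithelial genes, 5 had a range of at least 2 with 4NQO 3 and control 2 highest. Krt8, a keratin of simple epithelium, was at 4.91, 4.37 and 7.79 in 4NQO-treated tongue and 4.25, 6.17 and 5.35 in control tongue, and Krt18, its partner, had its highest values in the same tongues (7.90 in 4NQO 3 and 6.46 in control 2). Cldn10, a tight junction claudin, reached 7.47 in 4NQO 3 and 6.15 in control 2. In all, 7 of the 16 had such a range, and Krt7 and Elf5 had another order. Krt7, a keratin of ducts, was at 5.55, 5.64 and 5.84 in 4NQO-treated tongue and 7.59, 6.65 and 5.10 in control tongue, highest in control 1, where the gland index was low. Elf5, a transcription factor of glandular epithelium, was at 4.95, 6.43 and 7.16 in 4NQO-treated tongue and 6.82, 5.92 and 7.40 in control tongue, highest in control 3. Krt8 is also a marker of taste bud cells, and the taste genes Trpm5 and Pkd2l1 stayed between 3.57 and 3.95 and between 2.71 and 3.15. Of the 11 mucous genes, Tff2 and Agr2 were highest in control 2. Tff2, a trefoil peptide secreted with mucins, was at 4.01, 3.84 and 4.20 in 4NQO-treated tongue and 3.66, 7.24 and 5.60 in control tongue. Agr2, a chaperone of mucin folding, was at 2.57, 2.23 and 3.78 in 4NQO-treated tongue and 2.47, 4.71 and 3.17 in control tongue. Galnt6, a glycosyltransferase, was highest in 4NQO 1, with 7.44, 6.26 and 6.52 in 4NQO-treated tongue and 5.41, 6.06 and 5.31 in control tongue, and its groups did not overlap (adjusted p = 0.286 from limma). No gene of the duct and mucous lists passed limma's test.

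Of 5 measured genes listed for the von Ebner glands, the serous glands that open beneath the large papillae at the back of the tongue, only Lipf was bright. Lipf, lingual lipase, was at 2.45, 2.71 and 13.30 in 4NQO-treated tongue and 2.39, 13.18 and 12.00 in control tongue, and its range of 10.91 was the widest of all 18193 genes. The odorant-binding lipocalins Lcn3, Lcn4, Lcn11 and Obp2a lay between 2.25 and 3.41 in all 6 tongues.

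**Figure D3:**
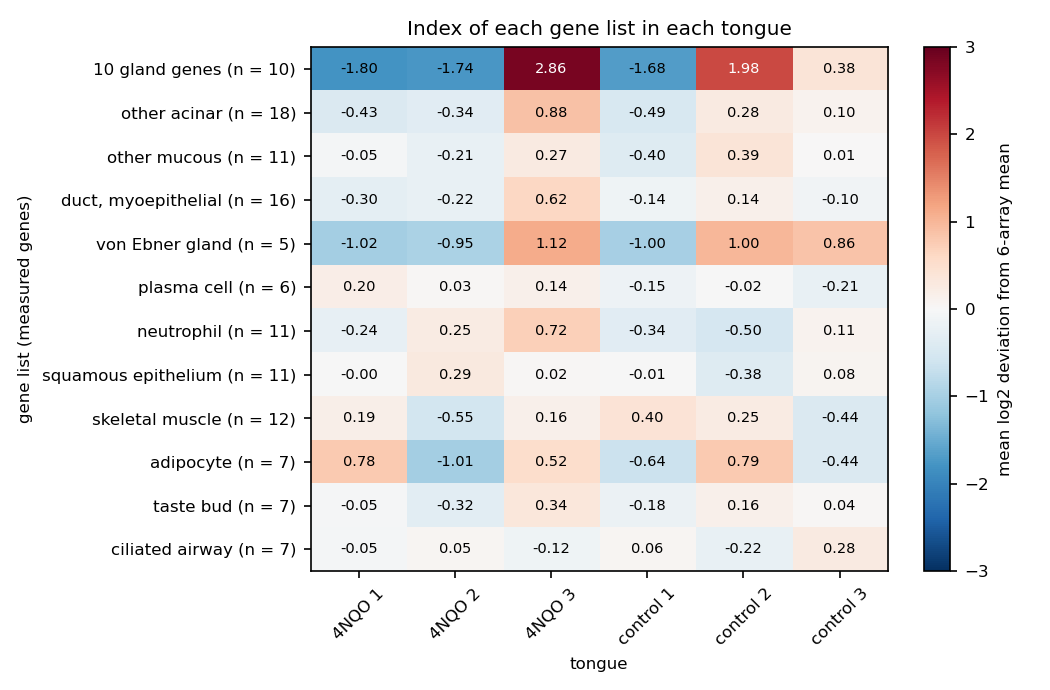
Index of each gene list in each tongue, the mean over its measured genes of the log2 deviation from the 6-array mean (colour and printed value), with 4NQO-treated tongues left of control tongues. The 10 gland genes and the acinar, mucous, duct and von Ebner lists are highest in 4NQO 3 and control 2, and the squamous list stays between -0.38 and 0.29.

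Apart from the taste bud list, which holds Krt8, the lists of other cell types did not have 4NQO 3 and control 2 as their highest tongues. The plasma cell list, the cells that supply the IgA carried by Pigr, had an index between -0.21 and 0.20. Its defining genes Jchain (2.17 to 2.32) and Igha (4.01 to 4.52) stayed below the array medians or close to them. Derl3 had the widest range of this list, with 4.90, 4.06 and 5.15 in 4NQO-treated tongue and 4.03, 4.29 and 3.07 in control tongue. The neutrophil list was highest in 4NQO 3 (0.72) and lowest in control 2 (-0.50), with 11 measured genes, of which S100a8, a calcium-binding protein also made by keratinocytes, was at 8.04, 9.27 and 11.24 in 4NQO-treated tongue and 7.01, 5.79 and 7.45 in control tongue. S100a9, its partner, was at 7.09, 9.61 and 11.55 in 4NQO-treated tongue and 6.34, 6.38 and 7.72 in control tongue. The list of 11 squamous genes summed to 132.7, 135.8 and 132.9 in 4NQO-treated tongue and 132.5, 128.5 and 133.6 in control tongue. The sum was lowest in control 2, where Sprr3, a cornified envelope protein, was at 8.15. The list of 12 skeletal muscle genes was lowest in 4NQO 2 (-0.55) and control 3 (-0.44), and the 7 adipocyte genes were highest in control 2 (0.79), 4NQO 1 (0.78) and 4NQO 3 (0.52). Ciliated airway genes had an index between -0.22 and 0.28, and their part in the gland signal, like that of the other lists, was not tested.

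The genes outside the list whose pattern was most like that of Bpifb1 were Bpifa2, 2310057J18Rik, Wfdc18, Lipf, Chia1, Prpmp5, Gp2, Sval2, B4galnt2 and Bpifb2, in this order. Likeness was the root mean square difference between the log2 deviations of both genes over the 6 tongues, which was 0.33 for Bpifa2, 0.39 for 2310057J18Rik and 2.58 for Bpifb2, against a median of 4.13 over 18192 genes. Of the list itself, Dmbt1 was closest to Bpifb1 (0.34), followed by Muc5b (1.71), Amy1 (2.02) and Ltf (2.26). Chia1, an acidic chitinase, was at 3.82, 3.61 and 11.06 in 4NQO-treated tongue and 3.03, 8.97 and 6.77 in control tongue. Gp2, a glycoprotein of secretory granule membranes, was at 2.52, 2.83 and 8.23 in 4NQO-treated tongue and 3.09, 7.81 and 5.98 in control tongue. All 10 of these genes had 4NQO 3 and control 2 as their highest tongues. That order is no separate finding, since they were chosen for likeness to Bpifb1.

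**Figure D4:**
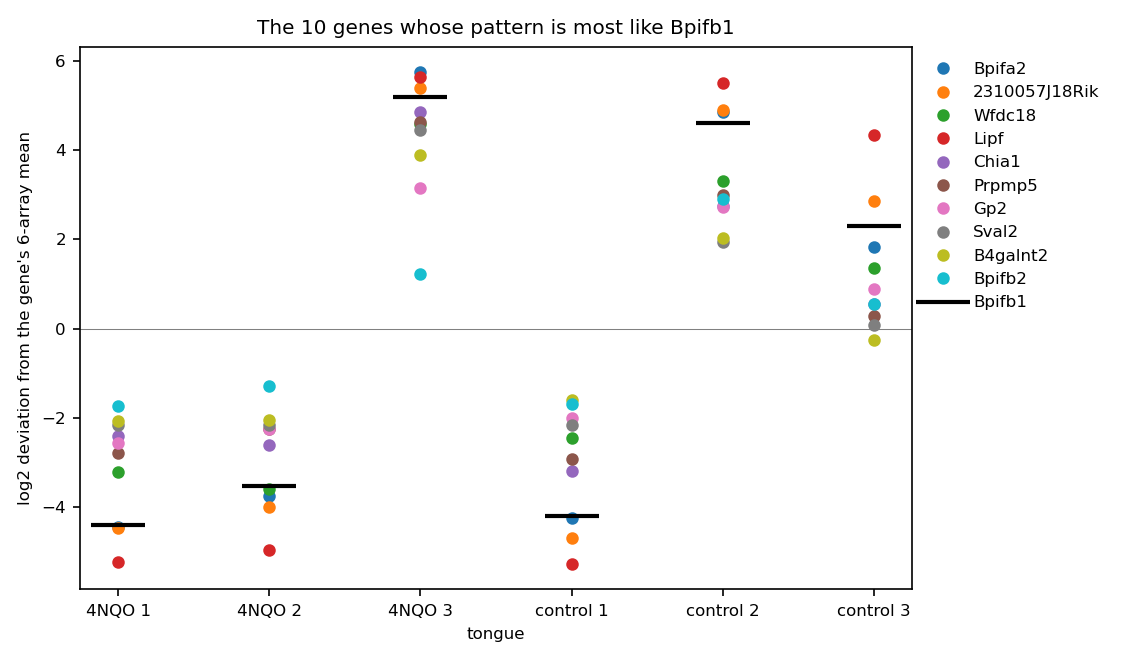
Log2 deviation of the 10 genes most like Bpifb1 (coloured points) and of Bpifb1 (black bars) from each gene's mean over 6 arrays, in 3 4NQO-treated tongues and 3 control tongues. All lie above 0 in 4NQO 3 and control 2 and below 0 in 4NQO 1, 4NQO 2 and control 1. The genes were chosen for this likeness.

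TATAA on the gene's strand, with its first base at positions -45 to -25 from an annotated start, was found for 6 of these 10 genes (Bpifa2, Chia1, Gp2, Lipf, Prpmp5 and Wfdc18), for 2 of 8 list members with a promoter in the RefSeq table (Bpifb1 and Pip) and in 3.7% of all 32851 promoters. In the sequences given above, its first base lies at position -31 for Bpifb1, -40 for Bpifa2, -30 for Lipf and -28 for Pip. Pip, with no signal above the lower quartile in any tongue, holds these letters, and Wfdc2 does not hold them in that window. Counted on both strands of the whole 300-base window, 24.9% of promoters hold TATAA, as do 3 of the 11 member promoters (Amy1, Bpifb1 and Pip). The other annotated start of Bpifb1 does not hold it. In the narrow window a gene was counted if any of its starts held TATAA, while the 3.7% is a share of promoters. The window was chosen after the sequences were seen, and a match is no shown site.

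Bpifb1 belongs to a run of related genes on chromosome 2, and its measured relatives differed widely in range. The 10 measured genes named Bpif were taken by name after the values were seen, and include Bpifc, which was not placed in this run. Of them, 4 had a range of at least 2, against 2.15% of all genes: Bpifb1, Bpifa2, Bpifb2 and Bpifb3. All 4 had 4NQO 3 and control 2 as their highest tongues, as did 7 of the 10 whatever their range, against 5.68% of all genes. Bpifb1 was picked for its spread and Bpifa2 and Bpifb2 for their likeness to it, so these counts only describe. Bpifa2 and Bpifb1 have 3 coding genes between them. Bpifa1, with 1 coding gene between it and Bpifb1, lay between 2.17 and 2.72. Bpifa5, its direct neighbour, was bright in every tongue, with 11.47, 12.07 and 12.61 in 4NQO-treated tongue and 12.12, 11.23 and 12.18 in control tongue, and was lowest in control 2. Bpifb2 was highest in control 2 at 7.66, against 6.00 in 4NQO 3.

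The bright tongues differed from each other gene by gene. Between 4NQO 3 and control 2, the difference was 0.60 for Bpifb1, 0.42 for Dmbt1, 0.67 for Amy1 and 0.12 for Lipf. It was wider for Ltf (2.96), Car6 (2.81), Chia1 (2.09) and Lpo (1.83), all higher in 4NQO 3. Muc5b (-0.60), Agr2 (-0.93), Tff2 (-3.04) and Bpifb2 (-1.66) were lower in 4NQO 3 than in control 2. The index of the mucous list was also lower in 4NQO 3 (0.27) than in control 2 (0.39). Its single genes ran both ways, with 8 of 11 higher in 4NQO 3 and 3 lower. Among the higher ones, Galnt12 differed by 1.17, Creb3l1 by 0.50 and Tff3 by 0.03. Galnt12 was also higher in every 4NQO-treated tongue than in any control tongue (adjusted p = 0.284 from limma). Of the 10 list members, 9 were higher in 4NQO 3 than in control 2, and the share of all genes that were was not counted. The 9 include Wfdc2, by 0.30, and Pip, by 0.38, which was not shown to be above background. Control 3 minus control 2 was -1.18 for Lipf and -2.95 for Muc5b, and above 0 for 2 of the 10, Wfdc2 and Pip. Each of these differences compares 1 tongue with 1 tongue and has no replicate check.

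**Figure D5:**
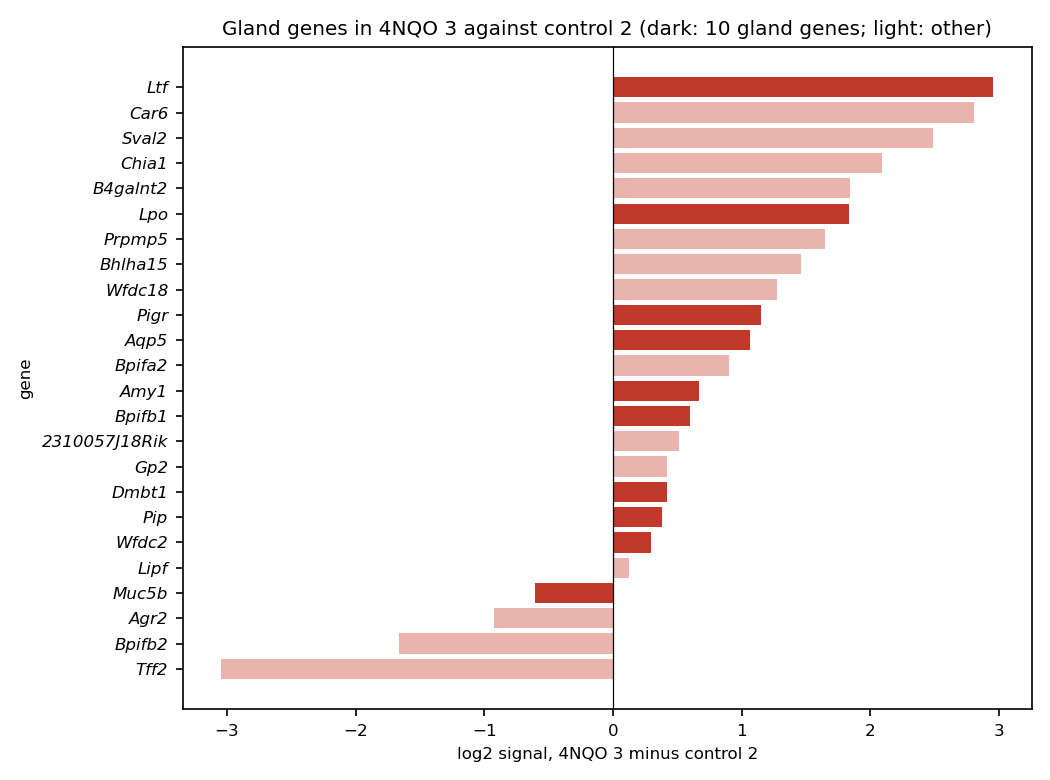
Log2 signal in 4NQO 3 minus control 2 for the 10 gland genes (dark bars) and for the most similar genes and 4 further gland genes (light bars), 1 tongue of each group with no replicate. Ltf lies at 2.96 and Tff2 at -3.04, while Bpifb1 lies at 0.60.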

How the data were processed

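Total RNA of 3 4NQO-treated and 3 control tongues was hybridized to Affymetrix mouse arrays with 45101 probe sets, 1 array per tongue. The authors filtered and normalized the scans with Bioconductor tools. The values they deposited are on the log2 scale, 1 per probe set. How they were normalized is not stated in the labels or methods, and no detection call was used, so dim signals are not shown to be above background. Probe sets were named through the platform annotation. Of 18193 genes with a probe set of 1 gene, 18032 were found by Entrez ID in GRCm38.p6 and 0 symbols changed. For each gene the probe set with the highest mean was used, with no filter. Groups were compared over all genes with limma 3.58.1 in R 4.3.3 (intensity trend, Benjamini-Hochberg, threshold 0.05), which was tested on simulated data. With 3 against 3 tongues a two-sided permutation p cannot go below 0.1. The members and lists were chosen with earlier results of these data known. Named genes are the members, up to 3 genes of widest range in each list and the 10 most like Bpifb1. Other named genes were chosen after their values were seen: Kcnn4, Slpi, Lyz1, Slc12a2, Ano1, Krt7, Elf5, Galnt12, Creb3l1, Tff3, Bpifa1, Bpifa5, Bpifb3, Prol1, Mucl1, Mucl2, Camp, Mmp8, Elane, Trpm5, Pkd2l1, Jchain and Igha, and the lipocalins. Correlations with Bpifb1 across tongues were not computed, because the tongues fall into separate clusters. Alternatives were other normalizations, probe sets, filters and models of the variance, a replicate block, each array left out and the methods' t-test. The number of arrays limits the precision.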

Additional observations from a re-analysis of the deposited data

How the results depend on the processing

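No list member passed an adjusted p under 0.05 in any of 16 other settings, while the number of genes higher over the whole table, 23 as reported, was 63 with arrays centred on their medians, 43 with the robust variance model, 15 with the mean of all probe sets, 14 with the probe set of largest SD, 34 with dim genes left out, 2 with the replicate block and 0 to 25 with 1 array left out. The t-test, which was not the study's method for the arrays, gave 1046 genes higher and 654 lower unadjusted, 1 and 1 after Benjamini-Hochberg, and no member either way. Leaving out 1 array, the median SD of the members lay between 1.36 (without 4NQO 3) and 2.51. Fold changes changed sign in these fits for Bpifb1 (-4.86 to 0.041), Aqp5 (-0.57 to 1.23), Lpo (-0.39 to 0.92), Ltf (-1.57 to 1.84), Pip (-0.086 to 0.13), Amy1 (-2.99 to 0.13), Pigr (-0.86 to 0.95) and Wfdc2 (-0.026 to 0.59). The lowest values came without 4NQO 3, except for Wfdc2, whose lowest came without control 1. The gland index kept its sign in every tongue under all alternatives run. That of control 3 came near 0, at 0.017 without 4NQO 1, 0.030 without 4NQO 2 and 0.0405 without control 1. It was 0.95 without 4NQO 3. With the replicate block the median log2 fold change of the members was 0.14. Same-numbered tongues do not deviate together (correlation over genes 0.29, -0.51 and 0.05), and 4NQO 2 correlated best with control 3 (0.48), so the numbers were not taken as pairs. Correlations with Bpifb1 under other normalizations, centring or probe sets were not run, since no correlation was computed.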
